A study of Homo sapiens with 17 samples.

Results

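The sites described here are the polymerase pausing positions that lie inside 10 genes of heterogeneous nuclear ribonucleoproteins (hnRNPs), namely HNRNPA1, HNRNPA2B1, HNRNPC, HNRNPK, HNRNPU, HNRNPH1, HNRNPD, HNRNPM, HNRNPAB and HNRNPDL. A position was taken when it fell within the GENCODE release 29 span of one of these genes on the gene's own strand (build GRCh38). The rule uses gene names and annotated positions and no measured time, but the genes were listed with earlier results of these data known. They held 974 of the 158141 distinct positions listed in the 4 deposited tables.

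The hnRNPs are abundant nuclear proteins that coat nascent RNA as it leaves RNA polymerase II and that act in splicing, export, stability and translation of messenger RNA. HNRNPA1 and HNRNPA2B1 belong to the core particles on pre-mRNA, and HNRNPC binds uridine tracts in the same particles. The genes are transcribed at high rates in dividing cells, and several of them regulate their own splicing. Polymerase pausing is the halting of an engaged polymerase at a position, most studied shortly after the transcription start, where release into elongation is a regulated step.

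Time-variant precision run-on sequencing was carried out in cells labelled HEK293, an established line from human embryonic kidney; the series design also names KBM7, a line of leukaemic origin, but no sample used here carries that label. Permeabilised cells were allowed to run on for 0.5, 2, 8 or 32 min, and the authors deposited a pausing time for each position; how it was fitted is not given in the sources used here. The groups were run-on with sarkosyl and run-on without it (sarkosyl-free), and all libraries came from cells that carried no other labelled treatment. The libraries of the buffers carry sample numbers from separate ranges. Buffer therefore cannot be told apart from any other difference between these sets of libraries. Sarkosyl, an ionic detergent, removes much of the protein bound to chromatin and blocks new initiation, but polymerases already engaged can still extend their RNA. Each buffer had 2 replicates of the 4 run-on times, and 1 table is named for each replicate, called a series below. In the order sarkosyl replicate 1, sarkosyl replicate 2, sarkosyl-free replicate 1 and sarkosyl-free replicate 2, which is kept throughout, the hnRNP genes held 299, 318, 443 and 276 sites out of 48566, 47713, 66089 and 41769. The tables give neither read depth nor a time unit, so times are printed as deposited. Of 10 markers of HEK293 cells, 7 had a listed site (19 to 38 sites in a series; PAX2, LHX1 and NEFM were at 0), and of 10 blood markers 3 did (0 to 4 sites).

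The 5 hnRNP sites that were listed in all 4 series and lay within 300 bp of the main start are shown first, because 3 of them had the smallest p-values among the hnRNP sites in the comparison of buffers. The main start is the 5′ end of the principal protein-coding transcript in the annotation. Each sequence runs 5′ to 3′ on the gene's strand, was read from GENCODE 29 transcripts, and has the listed base in capitals with 10 bases on either side. The sites lie at chr7:26200655-26200675 and chr7:26200649-26200669 (HNRNPA2B1, minus strand, first exon, 5′ UTR), chr5:179623608-179623628 (HNRNPH1, minus strand, first intron of the main transcript and exonic in another), chr5:178204581-178204601 (HNRNPAB, plus strand, first exon, 5′ UTR) and chr1:244864451-244864471 (HNRNPU, minus strand, first exon, 5′ UTR).
HNRNPA2B1 +81: actacagcgcCaggacgagtc
HNRNPA2B1 +87: gcgccaggacGagtccggttc
HNRNPH1 +103: gcggtgggtcCtcgcttgcag
HNRNPAB +84: cccgtgcggcGgcggccaagg
HNRNPU +99: cgccgttcgaCaccaggcgga
The listed base was C at 3 of these positions and G at the other two.

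HNRNPA2B1 +81 had pausing times of 0.858 and 0.908 in the sarkosyl series, compared with 10.9 and 19.2 in the sarkosyl-free series. The sarkosyl-free times were the longer ones, and the groups did not overlap. With every series set to a median of 0 over the 2967 sites shared genome-wide, the log2 difference (sarkosyl minus sarkosyl-free) was -3.90 (SE 0.73; limma, adjusted p = 0.155). At HNRNPA2B1 +87, 6 bp further on, sarkosyl times of 1.17 and 1.61 stood against sarkosyl-free times of 3.34 and 3.51. The order of the groups was the same as at +81, with a log2 difference of -1.19 (SE 0.71; limma, adjusted p = 0.353).

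HNRNPH1 encodes a splicing regulator that binds runs of guanosine. Its +103 site had sarkosyl times of 0.517 and 0.695 and sarkosyl-free times of 5.18 and 19.2. Again both sarkosyl-free series lay above both sarkosyl series, and the log2 difference was -3.92 (SE 0.88; limma, adjusted p = 0.155).

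HNRNPAB and HNRNPU had the opposite order. HNRNPAB encodes a protein of the A/B type that binds single-stranded nucleic acid, and its +84 site had sarkosyl times of 6.54 and 3.52 and sarkosyl-free times of 0.444 and 0.408. Here the sarkosyl series were the high ones, with a log2 difference of 3.63 (SE 0.76; limma, adjusted p = 0.155). HNRNPU encodes a large chromatin-bound RNA-binding protein also known as scaffold attachment factor A. Its +99 site had sarkosyl times of 1.10 and 1.37 and sarkosyl-free times of 0.472 and 0.175. The log2 difference was 2.23 (SE 0.84; limma, adjusted p = 0.197).

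At all 5 sites the groups did not overlap, 3 with shorter and 2 with longer times in sarkosyl, orders that 25.7% and 31.6% of the 2967 shared sites had. None passed the adjusted threshold of 0.05 in limma, and neither did any of the 2967 shared sites (0%), although 689 of them (23.2%) had an unadjusted p below 0.05, as did 4 of these 5: 2 with longer times in sarkosyl (12% of shared sites) and 2 with shorter (11.2%). With sarkosyl-free replicate 1 or replicate 2 left out, HNRNPA2B1 +81, HNRNPH1 +103 and HNRNPAB +84 each passed (adjusted p from 0.00801 to 0.0325), but so did 53.8% and 22.2% of all shared sites. They also passed with quantile normalization or scaling of the series, where 5.33% and 6.44% of all shared sites did, and over all alternatives their adjusted p ranged from 0.00801 to 0.981. HNRNPU +99 passed when sarkosyl-free replicate 1 was left out (adjusted p = 0.0109), the setting in which 53.8% of all shared sites did, also with a range up to 0.981.

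The other 14 sites listed in every series lay more than 300 bp from the main start, in HNRNPA2B1, HNRNPU, HNRNPAB and HNRNPH1. At 10 of them the buffers overlapped. Over all 19 sites, the sarkosyl times were higher without overlap at 3 (31.6% genome-wide) and lower without overlap at 6 (25.7% genome-wide). An unadjusted p below 0.05 was found for 6 of the 19, against the 23.2% given above. The median log2 difference of the 19 sites was 0.56, against 0.22 over all shared sites, with values from -3.92 to 3.63.

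Of these 14, HNRNPA2B1 +783 lay in the first intron of the main transcript and in an exon of another. It had sarkosyl times of 0.859 and 0.959 and sarkosyl-free times of 3.66 and 52.6 (limma log2 difference -3.80, SE 1.30, adjusted p = 0.177). HNRNPA2B1 +10929, after the end of the main transcript, had times of 0.870 and 1.09 against 4.42 and 11.6 (log2 difference -2.74, SE 0.80; limma, adjusted p = 0.173). Both resembled HNRNPA2B1 +81 in having sarkosyl times near 1 and longer times without sarkosyl. HNRNPU +15979, also after the main transcript, had the other order, with 1.64 and 2.00 against 1.01 and 0.185 (log2 difference 2.21, SE 1.03; limma, adjusted p = 0.262).

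HNRNPU +17306, in the same region of the gene, had sarkosyl times of 1.77 and 1.58 and sarkosyl-free times of 6.02 and 3.15. It was thus lower in sarkosyl without overlap (log2 difference -1.25, SE 0.77; limma, adjusted p = 0.366), opposite to HNRNPU +15979.

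The 10 overlapping sites varied in spread. HNRNPA2B1 +7448, in exon 9, had times of 5.99, 2.64, 0.439 and 6.94, and HNRNPU +1410, in the first intron, had 11.5, 1.90, 0.924 and 2.70, so in both a sarkosyl-free series was the lowest. HNRNPAB +6109, in the coding part of exon 8, had times of 1.01, 2.11, 1.95 and 1.76, and the buffers overlapped.

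**Figure D1:**
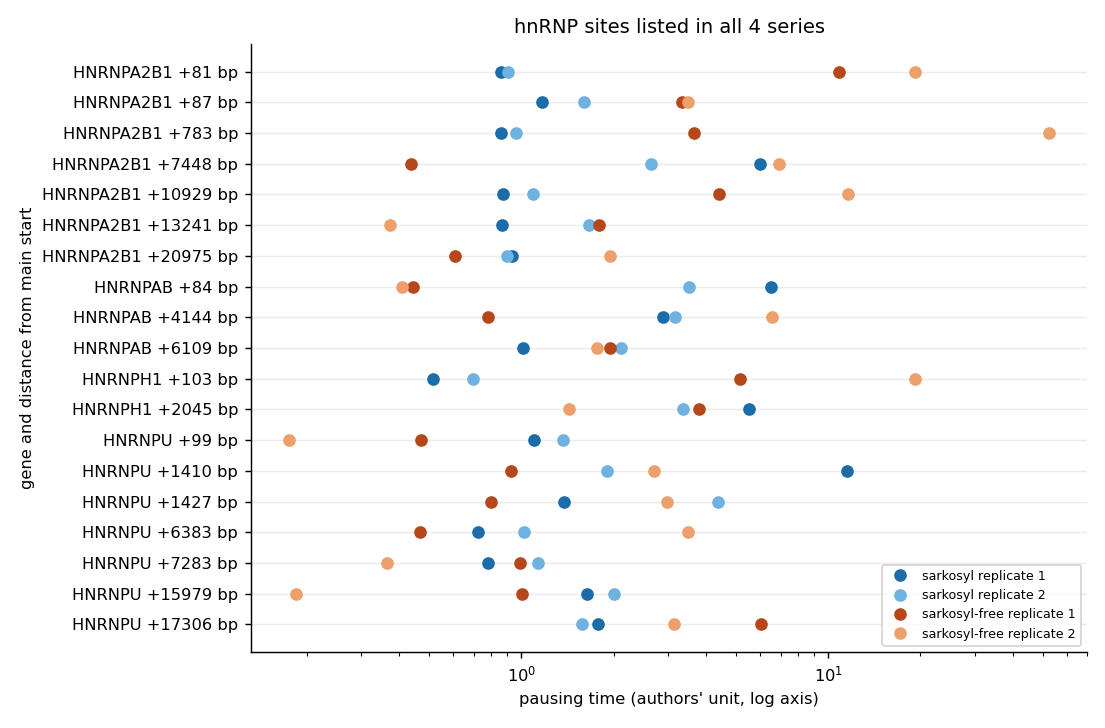
Pausing time (log axis, authors' unit) of the 19 hnRNP sites listed in all 4 series, 1 row per site named by gene and distance from the main start, 1 point per series. The red and orange sarkosyl-free points lie to the right of the blue sarkosyl points at HNRNPA2B1 +81 and HNRNPH1 +103 and to the left of them at HNRNPAB +84 and HNRNPU +99, and at 10 of the 19 sites the buffers overlap.

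HNRNPA2B1 and HNRNPU were among the genes with the most listed sites of the whole series. HNRNPA2B1 (ENSG00000122566.21, chr7:26173057-26201529, minus strand) held 76 and 97 sites with sarkosyl and 115 and 86 without it. Among the 7420 to 9179 protein-coding genes with a site in a series it ranked 2, 1, 2 and 2 by their number. HNRNPU (ENSG00000153187.19, chr1:244840638-244864560, minus strand) held 70, 68, 90 and 68 sites and ranked 3, 6, 4 and 6. The median over the other protein-coding genes with a site was 2, 2, 3 and 2 sites.

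The members with an intermediate number were HNRNPC, HNRNPA1, HNRNPH1, HNRNPDL and HNRNPAB. HNRNPC (ENSG00000092199.17, chr14:21209136-21269494, minus strand) had 25, 23, 79 and 32 sites, so its number was highest in sarkosyl-free replicate 1. HNRNPA1 (ENSG00000135486.17, chr12:54280193-54287088, plus strand) had 27, 27, 36 and 19. HNRNPH1 (ENSG00000169045.17, chr5:179614178-179634784, minus strand) had 33, 34, 26 and 15, with the larger numbers in sarkosyl. HNRNPDL (ENSG00000152795.17, chr4:82422564-82430408, minus strand), a relative of HNRNPD, had 26, 25, 35 and 20. HNRNPAB (ENSG00000197451.11, chr5:178204507-178211163, plus strand) had 22, 28, 18 and 11, again more in sarkosyl.

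The fewest sites were in HNRNPD, HNRNPM and HNRNPK. HNRNPD (ENSG00000138668.18, chr4:82352498-82374503, minus strand), also known as AUF1 and known for its part in the decay of messenger RNA with AU-rich elements, had 8, 4, 16 and 10. HNRNPM (ENSG00000099783.11, chr19:8444767-8489114, plus strand), a splicing regulator, had 6, 4, 15 and 13. HNRNPK (ENSG00000165119.20, chr9:83968083-83980616, minus strand), which binds cytidine-rich RNA and DNA, had 6, 8, 13 and 2. Per kb of gene span the range over genes and series was wide, from 0.0902 sites for HNRNPM in sarkosyl replicate 2 to 5.22 for HNRNPA1 in sarkosyl-free replicate 1.

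The share of a series' sites that fell in each gene was compared between the buffers, as log2 of the number plus 0.5 per 10000 sites in protein-coding genes. None of the 10 members passed the adjusted threshold in limma, against 22 of 3024 genes tested (0.728%); 18 of the 22 were minus-strand genes of chromosome X, where the sarkosyl tables list no site. With the 19 tested genes of that kind left out the count was 0, and why the other 4 then missed the threshold was not tested. An unadjusted p below 0.05 was found for 608 of the 3024 genes (20.1%) and for 3 members. Of these, 2 were higher in sarkosyl (9.95% of genes) and 1 was lower (10.2%). HNRNPM had sarkosyl log2 shares of 1.29 and 0.74 and sarkosyl-free log2 shares of 1.93 and 2.47. The log2 difference was -1.19 (SE 0.42; limma, adjusted p = 0.227). HNRNPH1 had 3.65 and 3.68 against 2.71 and 2.67, a log2 difference of 0.98 (SE 0.35; limma, adjusted p = 0.227). HNRNPAB had 3.08 and 3.40 against 2.19 and 2.24, a log2 difference of 1.03 (SE 0.37; limma, adjusted p = 0.227).

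The groups did not overlap for 4 members with larger shares in sarkosyl (HNRNPA1, HNRNPAB, HNRNPDL and HNRNPH1, against 27.4% of genes) and for 3 with smaller ones (HNRNPC, HNRNPD and HNRNPM, against 29.1%). HNRNPC and HNRNPD had log2 differences of -0.82 and -0.86. HNRNPA2B1 and HNRNPU, which had the most sites, had log2 differences of 0.02 and 0.05, both of which changed sign when the shares were centred on their median. When only the 527 genes with on average at least 10 sites were tested, HNRNPH1 (adjusted p = 0.0279) and HNRNPAB (adjusted p = 0.0264) passed the threshold, as did 124 (23.5%) of those genes. Over all alternatives their adjusted p ranged up to 0.442 and 0.46. In bulk data of this kind a smaller number of listed sites cannot be told apart from fewer reads at the gene.

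Pooled over the 10 members, the sites of the hnRNP genes were distributed over the gene differently from those of the remaining protein-coding genes. In the first 300 bp after the main start were 10.0%, 11.3%, 5.87% and 5.43% of hnRNP sites, against 30.0%, 23.2%, 15.1% and 15.2% of sites in other genes. After the end of the main transcript were 23.1%, 24.5%, 22.8% and 30.8%, against 7.46%, 7.86%, 8.10% and 9.01%. In exons beyond 300 bp were 29.1%, 26.1%, 26.2% and 26.8%, against 16.8%, 17.9%, 16.6% and 18.7%. These orders were the same in all 4 series. With 300 bp counted from any annotated start of the gene, the first class held 26.1%, 24.2%, 16.9% and 15.2% of hnRNP sites, against 43.7%, 34.4%, 23.5% and 23.5%.

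**Figure D2:**
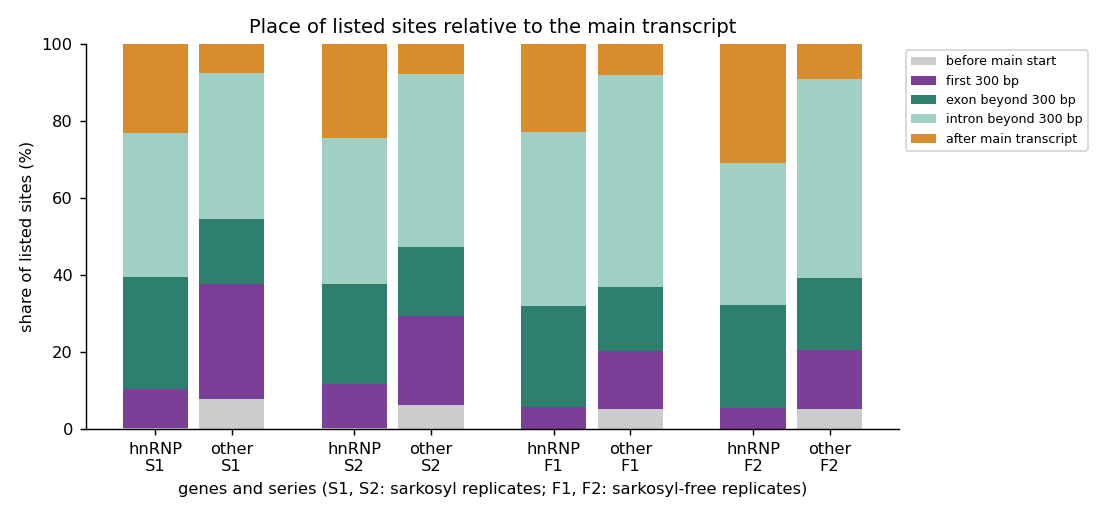
Share of listed sites (%) by place relative to the main transcript, stacked to 100%, for the hnRNP genes and the other protein-coding genes in each series (S1, S2: sarkosyl replicates; F1, F2: sarkosyl-free replicates). In each series the hnRNP bar has a smaller share in the first 300 bp and a larger share after the main transcript.

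The sites after the main transcript belonged almost wholly to HNRNPA2B1 and HNRNPU, with 1 further site in HNRNPC. In HNRNPA2B1 they were 51 of 76, 59 of 97, 70 of 115 and 61 of 86 sites, or 67.1%, 60.8%, 60.9% and 70.9%. The main transcript of this gene spans 8.90 kb, and a longer protein-coding transcript in the annotation covers the region beyond it, so 0 of these sites lay past the end of every coding transcript. In HNRNPU they were 18, 19, 30 and 24, or 25.7%, 27.9%, 33.3% and 35.3%, and all of them lay past the end of every coding transcript of the gene.

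The times there did not stand to those of the rest of the gene in one order. Up to the main end, the median times in HNRNPA2B1 were 3.02, 1.60, 4.53 and 19.6, and beyond it they were 1.83, 1.28, 5.62 and 9.26. In 3 of the 4 series the sites beyond the end had the shorter median. In HNRNPU the medians up to the end were 2.48, 1.55, 4.73 and 12.6, and beyond it 2.98, 1.61, 6.30 and 9.39, with the shorter median beyond the end in sarkosyl-free replicate 2 alone.

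The split of sites between exons and introns of the main transcript differed by gene. Exon and intron lengths were not taken into account. In HNRNPDL, exon sites numbered 21 of 26, 21 of 25, 28 of 35 and 19 of 20. In HNRNPC, which spans 60.4 kb, intron sites numbered 19 of 25, 21 of 23, 75 of 79 and 32 of 32. In HNRNPM all but 1, 0, 1 and 0 sites were intronic. Reads from exons can match processed pseudogenes, which are common for this family. How reads with several matches were treated is not given in the sources used here, and whether this affected the exon sites was not tested.

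HNRNPA1 had 0 sites in the first 300 bp after its main start in every series. Its first listed site was 583 bp downstream. Of its 9 protein-coding transcripts, 5 others begin 555 to 587 bp after the main start, and within 300 bp of any annotated start the gene had 13, 11, 13 and 4 sites. Every HNRNPA1 site also lay in the span of AC078778.2, another annotated gene on the same strand, and the tables cannot assign it to one of them.

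**Figure D3:**
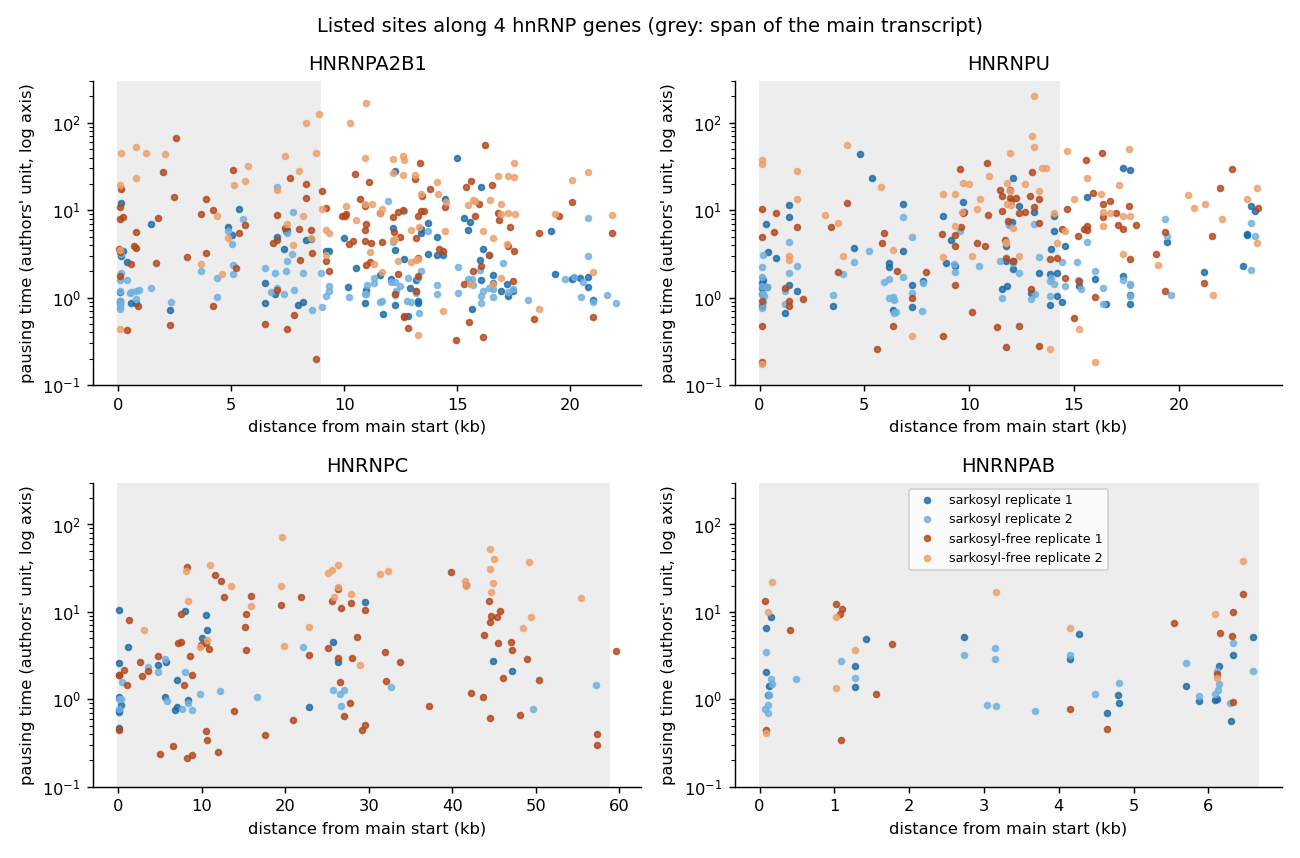
Pausing time (log axis, authors' unit) of each listed site against its distance from the main start in kb, for HNRNPA2B1, HNRNPU, HNRNPC and HNRNPAB, coloured by series, with the main transcript's span in grey. In HNRNPA2B1 most points lie beyond the 8.90 kb of the main transcript, and in HNRNPC most points are sarkosyl-free sites spread over the introns.

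The median pausing time of hnRNP sites was 2.21, 1.41, 4.48 and 11.6, against 1.52, 1.37, 2.33 and 8.93 for sites in other protein-coding genes. Over all places in the gene together, the hnRNP median was the longer one in all 4 series. The difference of medians on the log2 scale was 0.54 and 0.04 with sarkosyl (0.29 ± 0.35, SD, n = 2) and 0.95 and 0.37 without it (0.66 ± 0.41, SD, n = 2). With sarkosyl the mean difference was thus smaller than the spread between replicates, and without it larger. In the more certain 50% of sites the sarkosyl-free difference was 1.97 ± 2.66 (SD, n = 2), which is smaller than its spread. By place, the hnRNP median was not always the longer one. In sarkosyl replicate 2 it was longer in exons beyond 300 bp (1.60 against 1.44). In that series it was slightly shorter in the first 300 bp (1.149 against 1.157), in introns (1.48 against 1.49) and after the main transcript (1.39 against 1.48). After the main transcript, both medians were 9.35 in sarkosyl-free replicate 2. The upper quartile of the authors' estimate of an hnRNP site's rate exceeded the lower by a median factor of 2.87, 3.30, 2.64 and 2.11, so single times are imprecise.

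By gene, the log2 difference from other genes was above 0 in all 4 series for HNRNPA1, HNRNPK, HNRNPU, HNRNPH1 and HNRNPDL. HNRNPU, the member with many sites among these, had 0.70, 0.22, 1.28 and 0.29. HNRNPA1 had 1.30, 0.16, 1.43 and 0.08, so its values were high in replicate 1 of both buffers and near 0 in replicate 2 of both. HNRNPH1 had 0.07, 0.02, 0.64 and 1.03 and HNRNPDL 0.17, 0.13, 0.58 and 0.84, with the larger values in the sarkosyl-free series. HNRNPK, which rests on 2 to 13 sites, had 1.91, 0.83, 0.21 and 0.05. HNRNPM was below 0 in all 4 series, with -0.01, -0.23, -0.38 and -0.14.

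HNRNPA2B1 had log2 differences from other genes of 0.39, -0.01, 1.26 and 0.21, and HNRNPC had 0.68, -0.27, 0.42 and 1.15. In both genes sarkosyl replicate 2 was the only series below 0. For HNRNPD the same series was below 0 (0.07, -0.25, 1.42 and 0.49), and for HNRNPAB it was sarkosyl-free replicate 2 (0.17, 0.15, 1.24 and -0.03).

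**Figure D4:**
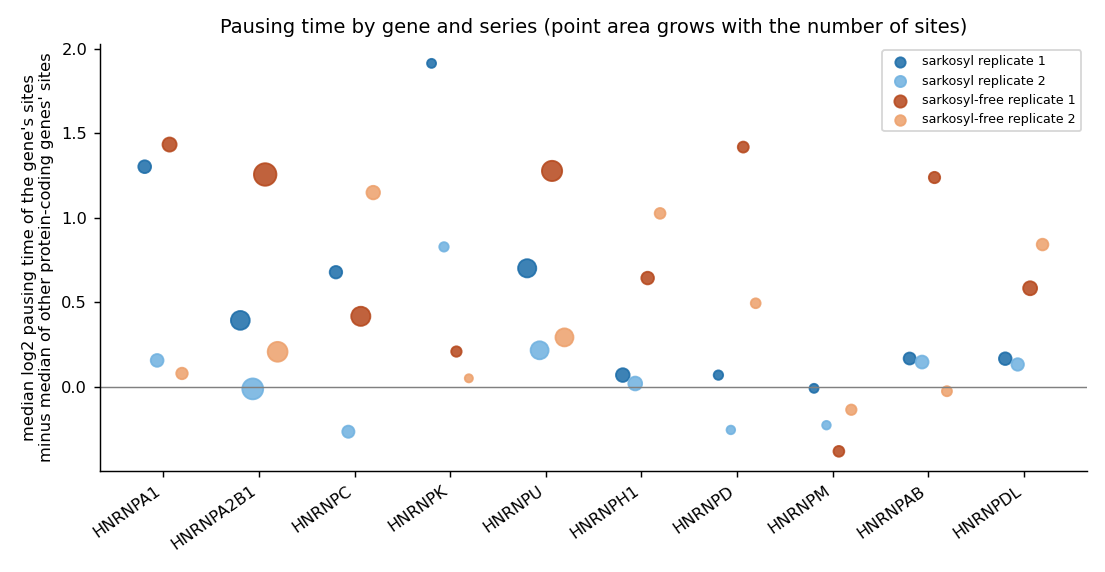
Median log2 pausing time of each hnRNP gene's sites minus the median over sites of other protein-coding genes, 1 point per gene and series, with point area growing with the number of sites. HNRNPM lies below 0 in all series, HNRNPU above 0 in all, and sarkosyl-free replicate 1 is the highest series for HNRNPA1, HNRNPA2B1, HNRNPU, HNRNPD and HNRNPAB.

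Gene medians were compared between the buffers for genes with at least 3 sites in each series, which left out HNRNPK. Of 1562 genes none passed the adjusted threshold in limma (0%), and 141 (9.03%) had an unadjusted p below 0.05, of which 0 were members (7.55% higher and 1.47% lower in sarkosyl). After centring on the tested genes, 8 of the 9 members had a log2 difference below 0 (sarkosyl minus sarkosyl-free), against 44.8% of all genes tested; with the series scaled to equal spread HNRNPA1 was above 0 (0.17) and HNRNPM below 0 (-0.12). The median over the members was -0.60 and over all genes 0.11.

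In HNRNPD, HNRNPDL and HNRNPH1 both sarkosyl medians lay below both sarkosyl-free medians, an order that 18% of all genes had, and 0 members had the opposite order (22.9%). HNRNPD had centred log2 medians of -0.05 and -0.33 in sarkosyl, and sarkosyl-free values of 1.31 and 0.52. Their difference was -1.11 (SE 0.59; limma, adjusted p = 0.646). HNRNPH1 had -0.05 and -0.06 against 0.53 and 1.05, a difference of -0.85 (SE 0.56; limma, adjusted p = 0.702). HNRNPDL had 0.05 and 0.05 against 0.47 and 0.87, a difference of -0.62 (SE 0.55; limma, adjusted p = 0.771). These orders are descriptions, since no member passed.

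In the other members the buffers overlapped. HNRNPA2B1, HNRNPC, HNRNPAB and HNRNPU had log2 differences of -0.60, -0.63, -0.50 and -0.38. HNRNPA1, at -0.08, and HNRNPM, at 0.08, were nearest to 0, and both changed sign under alternative settings. HNRNPU and HNRNPAB changed sign when sarkosyl-free replicate 1 was left out, to 0.042 and 0.058.

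Pooled over the members, sites near the start had shorter times than the remaining sites of the hnRNP genes. The log2 difference of medians was -0.87 and -0.35 in sarkosyl (-0.61 ± 0.37, SD, n = 2) and -0.82 and -0.20 without it (-0.51 ± 0.44, SD, n = 2). In other protein-coding genes it was -0.44 and -0.34 with sarkosyl (-0.39 ± 0.07, SD, n = 2) and -0.54 and -0.60 without it (-0.57 ± 0.04, SD, n = 2), so the hnRNP values were not separated from those of other genes by more than their own spread. The hnRNP class was small, with 30, 36, 26 and 15 sites near the start. Single genes did not all have this order. In sarkosyl-free replicate 1, the 7 near-start sites of HNRNPA2B1 had a median of 8. Its exons, introns and part after the main transcript had 3.23, 4.53 and 5.62. HNRNPU had the pooled order in that series (0.908, against 7.14, 2.77 and 6.30). In sarkosyl-free replicate 2 it had the opposite order (33.3 from 3 sites, against 14.9, 8.93 and 9.39). When only the more certain 50% of sites were used, or any annotated start, the sarkosyl difference was -0.024 or -0.078.

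Replicates of a buffer shared a larger number of hnRNP sites than series of different buffers, although the shares overlapped. The sarkosyl series shared 135 sites, which were 45.2% of replicate 1 and 42.5% of replicate 2, against 34.6% and 34.2% in other protein-coding genes. The sarkosyl-free series shared 107, or 24.2% and 38.8%, against 18.2% and 30.5%. Across buffers the shared hnRNP sites numbered from 37 to 76, or 11.6% to 25.4% of a series, against 7.85% to 18.1% in other genes. The highest, 25.4% of sarkosyl replicate 1, was above the 24.2% that sarkosyl-free replicate 1 shared with replicate 2. Spearman's rho of the times at shared sites, a description across sites that share libraries, was 0.63 over the 135 sarkosyl sites and 0.61 over the 107 sarkosyl-free sites, and from -0.40 to 0.18 across buffers.

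The repeat of a site differed by gene. Of the 974 positions, 19 were listed in 4 series, 48 in 3, 209 in 2 and 698 in 1. The 19 comprised 7 in HNRNPA2B1, 7 in HNRNPU, 3 in HNRNPAB and 2 in HNRNPH1. HNRNPC had 139 distinct sites, of which 122 were listed in 1 series, and HNRNPM had 0 sites shared by the sarkosyl series.

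The base at the site differed between series far more than between hnRNP and other genes. A sequence could be read for 528 of the 974 hnRNP positions (54.2%). These lay in an exon of an annotated transcript with at least 10 exon bases on either side, so sites at exon edges are not included. With sarkosyl the base was C at 77.3% and 70.4% of these sites and G at 19.5% and 21.0%. Without sarkosyl it was C at 47.3% in replicate 1 and 20.3% in replicate 2, and G at 50.2% and 77.7%. In other protein-coding genes C was at 74.1%, 72.4%, 51.0% and 22.5%, in the same order of series. The sarkosyl-free replicates thus also differed from each other, in hnRNP and other genes alike.

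Of hnRNP sites found in both sarkosyl series and in no sarkosyl-free series, 50 of the 57 with a sequence had C (87.7%) and 5 had G. Of those found in both sarkosyl-free series and in no sarkosyl series, 9 of 39 had C (23.1%) and 30 had G (76.9%). The hnRNP sequences were poorer in G and C around the site: in the 21 bases centred on it, G and C made up 48.2%, 49.1%, 44.4% and 43.4%, against 62.3%, 60.1%, 57.1% and 55.8% in other genes. T followed the site in 50.3%, 48.4%, 48.5% and 62.2% of hnRNP sites, against 32.6%, 37.2%, 41.1% and 54.1%.

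**Figure D5:**
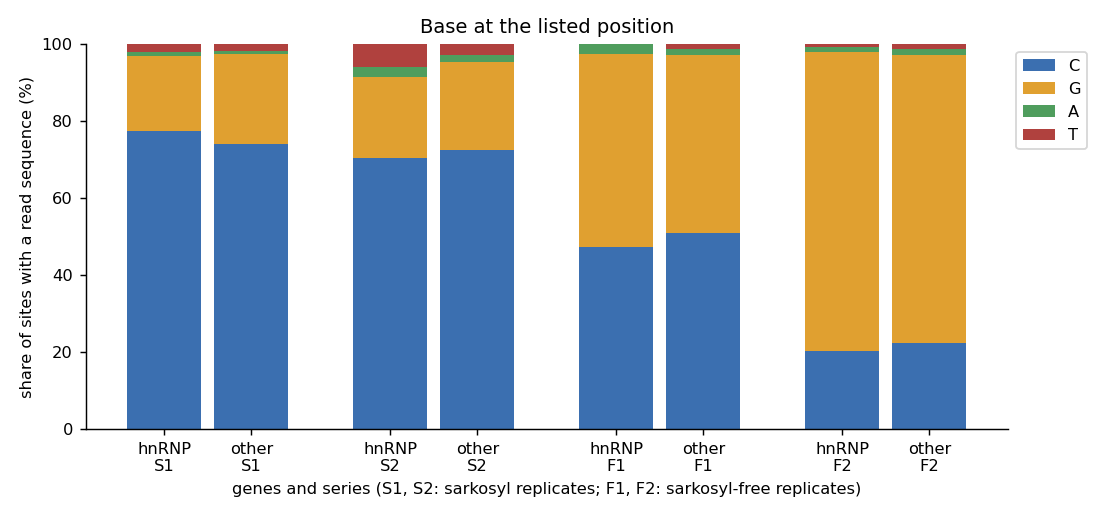
Base at the listed position as a share (%) of sites with a sequence, stacked to 100%, for hnRNP and other protein-coding genes in each series (S1, S2: sarkosyl replicates; F1, F2: sarkosyl-free replicates). For the hnRNP genes the share with C is 77.3% in S1 and 20.3% in F2, beside 74.1% and 22.5% in other genes.

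The time differed with the base in the sarkosyl-free series. Sites with G had a median of 6.67 in replicate 1 and 13.3 in replicate 2, against 3.58 and 4.27 for sites with C. In other genes the same medians were 2.99 and 9.52 for G and 1.83 and 3.08 for C, so the order was the same. With sarkosyl the hnRNP medians were 3.69 and 1.49 for G and 1.69 and 1.53 for C, and the replicates did not have the same order.

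Sites with A or T were few. In sarkosyl replicate 1 the 6 such hnRNP sites had a median time of 27.1, from 3.41 to 43.5, against 2.04 for sites with C or G. In other genes the 399 such sites of that series also had the longer median, 6.02 against 1.38. In sarkosyl replicate 2 no such order was seen, with 16 hnRNP sites at a median of 1.23 against 1.52. In the sarkosyl-free series hnRNP sites with A or T, 6 and 3 in number, had the longer medians (10.1 against 5.03, and 47.6 against 11.4), whereas in other genes such sites had the shorter ones (1.74 against 2.30, and 2.08 against 7.91).

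The longest times of the sarkosyl-free series were mostly in HNRNPU and HNRNPA2B1, the members with the most sites. An HNRNPU site in the 3′ UTR (last exon, 13094 bp from the start) had 200 in sarkosyl-free replicate 2, the longest hnRNP time of any series, and 9.43 and 7.04 in the sarkosyl series. In that series HNRNPA2B1 +10956 had 167 (1.21 in sarkosyl replicate 1) and HNRNPA2B1 +8860, in the 3′ UTR, had 125. In sarkosyl-free replicate 1 the longest were HNRNPA2B1 +2568 at 66.7, HNRNPA2B1 +16229 at 55.6 and HNRNPA1 +1434 at 52.6, all listed in that series alone.

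With sarkosyl the longest times were shorter. In replicate 1 they were HNRNPU +4804 at 43.5, HNRNPA2B1 +14955 at 40.0 and HNRNPU +17318 at 30.3, none of which was listed elsewhere. In replicate 2 they were HNRNPH1 +2089 at 35.7, HNRNPDL +986 at 21.7 and HNRNPDL +4101 at 19.2. The first and second of these repeated in replicate 1, with 25.6 and 19.6. The sequences are shown for the 3′ UTR site of HNRNPU (chr1:244851456-244851476) and the HNRNPH1 site (chr5:179621622-179621642), both on the minus strand. They were chosen because the first had the longest hnRNP time and the second was long in both sarkosyl series. The HNRNPH1 site lay in an intron of the main transcript and in an exon of another. The capital is the listed base.
HNRNPU +13094: tgaacagagtGtattctgtat
HNRNPH1 +2089: gataaattcaTtctgaaactg
The HNRNPH1 site is one of the few with T at the listed position.

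The shortest times were spread over 4 members. With sarkosyl they were HNRNPC +57, in the 5′ UTR, at 0.473, HNRNPH1 +2756, in a coding exon, at 0.506 and 0.627 in the 2 replicates, and HNRNPH1 +8807, in the 3′ UTR, at 0.512. The other two in sarkosyl replicate 2 were HNRNPA2B1 +13289 at 0.66 and HNRNPU +6391 at 0.662. Without sarkosyl they were HNRNPU +119, in the 5′ UTR, at 0.184 (1.27 and 1.74 with sarkosyl), HNRNPA2B1 +8746, in the 3′ UTR, at 0.20 and HNRNPC +8207, in an intron, at 0.212 in replicate 1. In replicate 2 they were HNRNPU +99 at 0.175, HNRNPU +15979 at 0.185 and HNRNPU +13861, in the 3′ UTR, at 0.258, so all 3 belonged to HNRNPU.

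A list of 18 further hnRNP family and partner genes gives the setting. All 18 had a listed site, 16 of them in every series, and together they held 252, 224, 358 and 259 sites. HNRNPL, a splicing regulator that binds CA repeats, had 60, 57, 36 and 33 sites with medians of 1.93, 1.23, 2.77 and 7.75. PCBP2, a binder of cytidine-rich RNA, had 32, 23, 46 and 28 sites.

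Of the 13 further genes with enough sites, 0 passed the adjusted threshold for the gene median in limma (0% of all genes tested). An unadjusted p below 0.05 was found for 0 of them (9.03% of all genes). A log2 difference below 0 was found for 10 (44.8% of all genes), with a median of -0.42 over the 13. Both sarkosyl medians lay below both sarkosyl-free medians in 7 (18% of all genes) and above them in 1 (22.9%). In the share of listed sites, 1 of 14 passed (0.728% of all genes tested). This was RBMX, on the minus strand of chromosome X, where the sarkosyl tables list no site at all, so its 0 and 0 sarkosyl sites beside 41 and 29 sarkosyl-free sites say nothing of the gene.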

How the data were processed

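Pausing times were deposited by the authors as 4 tables, 1 per buffer and replicate, in units that the file headers do not name; in each row the time is the reciprocal of the median rate, which is rounded to 3 decimals. Other deposited columns, per the file headers, are the mean, SD, Monte Carlo error and quartiles of the rate. The submitters' processing notes name cutadapt 1.14, HISAT2 2.1.0, SAMtools, bedtools and the build hg38; the site calling rule and the model are not given in the sources used here. The tables hold no read numbers, so no counting interval was computed. The series design calls the replicates biological duplicates. Of 17 samples, 16 libraries belong to the buffers; 1 further sample, a treatment, was not analysed here.

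The members and lists were chosen with earlier results of these data known. All 10 genes are named, as are sites in all 4 series and the 3 longest and 3 shortest times of a series; of further family genes, those past a threshold and the 3 with the most sites. One item under this rule is not reported here. Sites were assigned to GENCODE 29 gene spans by strand. Positions were taken to count from 1, since base profiles around exon sites then coincided on both strands (mean difference 0.707 to 0.922 percentage points, against 10.1 or more after a shift of 1 or 2 bases).

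Values were analysed as log2 time in R 4.3.3 and Python 3.11.15 (matplotlib 3.10.9, scipy 1.17.1, pandas 2.3.3, numpy 2.4.6). Buffers were compared with limma 3.58.1 (lmFit, eBayes) over all features, centred on the median of each series except for shares, and called at a Benjamini-Hochberg adjusted p under 0.05. The fit was run on simulated normal values with the same spread for every feature and both buffers. Unequal spread between the buffers was not simulated. Of the 14 promoter windows in RefSeq for 9 members, none was needed for a printed sequence. Alternatives covered centring and scaling, a replicate block, filters, windows and leaving out each series.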

Additional observations from a re-analysis of the deposited data

How the results depend on the processing

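Of 279 values for single genes and near-start sites under alternatives, 262 kept their direction and 18 passed the threshold where the reported value did not. Of these 18, 16 were near-start sites and 2 were shares of listed sites, all in settings that also called other features. Quantile normalization, scaling and the replicate block called 5.33%, 6.44% and 5.43% of all shared sites. The minimum of 10 sites called 23.5% of the genes tested for shares. Where 1 series was left out, the lone series of that buffer is assumed to vary like the other group. For the gene medians, HNRNPM was -1.51 without centring, which moved the median of all genes from 0.11 to -1.49, and was -0.18 with quantile normalization and -0.12 with scaling, and -0.11 to 0.28 with a series left out. HNRNPA1 was 0.17 with scaling and -0.69 to 0.53 with a series left out, HNRNPU -0.81 to 0.042 and HNRNPAB -1.07 to 0.058. For the share of sites, HNRNPA2B1 was -0.0069 without minus-strand genes of chromosome X, -0.13 centred on the median and -0.15 to 0.19 with a series left out. HNRNPU was -0.10 centred and -0.12 to 0.22, and HNRNPK -0.26 to 1.43. The X filter and the centring of shares were chosen after seeing the data.

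The count of sites called was 158 with quantile normalization, 191 with scaling, 161 with the replicate block, 14 (of 248 tested) in the more certain 50% of sites and 0 to 1597 with a series left out (1597 without sarkosyl-free replicate 1, 660 without replicate 2). The count of gene medians called was 0 to 48 with a series left out (48 without sarkosyl-free replicate 1). The count of shares called was 124 at a minimum of 10 sites, 0 with no minimum, 64 with the replicate block, 37 beyond 300 bp, 0 without the X genes and 0 with any series left out. Replicate numbers share only a number: the correlation of replicate differences between buffers was 0.0134 (sites), 0.0644 (gene medians) and -0.0154 (shares). Under the block HNRNPA2B1 +81, HNRNPH1 +103 and HNRNPAB +84 had limma adjusted p of 0.0237, 0.0227 and 0.0375. In that setting 5.43% of all shared sites passed.

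The level without sarkosyl was 1.97 ± 2.66 (SD, n = 2) in the more certain sites. The near-start difference was -0.024 ± 0.25 with sarkosyl and -1.64 ± 2.47 without it in those sites, and -0.078 ± 0.096 with sarkosyl from any start. Without sarkosyl it was -2.08 ± 1.63 in the first 100 bp and -0.15 ± 0.39 in the first 1000 bp. Within 5 bp, 55.9% and 32.7% of replicate 1 sites were shared. The cause of these changes was not tested. With 2 series a buffer and unknown depth, differences smaller than those between replicates cannot be resolved.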

Other observations

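Sites lay close together more often in the hnRNP genes. A site had another of its gene and series within 10 bp in 23.4%, 23.3%, 16.3% and 18.8% of hnRNP sites (sarkosyl replicates 1 and 2, then sarkosyl-free replicates 1 and 2), against 19.5%, 14.2%, 10.0% and 8.86% in other protein-coding genes. The hnRNP genes also held more sites each, with a median of 25.5, 26, 30.5 and 17 against 2, 2, 3 and 2, and the part of this in the spacing was not tested.

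The pair HNRNPA2B1 +81 and +87 belongs to this group of neighbours. At both positions the times were longer without sarkosyl, but the sarkosyl-free times were 10.9 and 19.2 at the C of +81 against 3.34 and 3.51 at the G of +87. Among hnRNP sites of the sarkosyl-free series as a whole, sites with G had the longer medians, so this pair goes the other way.

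In HNRNPH1 more than 50% of the sites lay within 300 bp of some annotated start in every series (57.6%, 55.9%, 53.8% and 53.3%), whereas HNRNPA2B1 had 10.5%, 11.3%, 10.4% and 8.14%. The annotation lists 50 transcripts for HNRNPH1 and 9 for HNRNPA2B1.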
